A study of Mus musculus with 20 samples.

Results

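The genes described here organise the synapses that granule cell axons (parallel fibres) and inferior olive axons (climbing fibres) form on Purkinje cells (PCs). They are 8 listed genes of the cerebellin complex and of the C1ql1 and Bai3 complex, found by symbol among the 55401 Ensembl genes of the count table, of which 21897 are protein-coding. Cbln1 (ENSMUSG00000031654), Cbln2 (ENSMUSG00000024647), Cbln3 (ENSMUSG00000040380) and Cbln4 (ENSMUSG00000067578) encode the cerebellins, and C1ql1 (ENSMUSG00000045532) encodes a related secreted C1q-like protein. Adgrb3 (ENSMUSG00000033569) encodes the adhesion receptor Bai3, Grid1 (ENSMUSG00000041078) encodes the delta-type glutamate receptor GluD1, and Grid2ip (ENSMUSG00000010825) encodes delphilin, a postsynaptic scaffold of PC spines. All 8 were counted in all 20 libraries and all 8 passed the filter on low counts in each comparison.

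Cerebellins are secreted by granule cells and bridge presynaptic neurexins, in splice forms that carry segment SS4, to delta-type glutamate receptors on PC spines. Cbln3 leaves the cell only when assembled with Cbln1. C1ql1 is released by climbing fibres and binds Bai3 on PCs, and it is known for helping a winning climbing fibre to keep its territory on the dendrite.

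Bulk RNA-seq was run on the cerebellum of C57BL/6J mice, with 1 cerebellum per library and a separate mouse for each. The late set, labelled 25w, held 5 AAV-shA4-treated SCA7 mice, 5 AAV-shSCR-treated SCA7 mice and 4 untreated wild-type (WT) mice, and the early set, labelled 9w, held 3 AAV-shA4-treated WT mice and 3 untreated WT mice. The SCA7 mice were labelled 140Q/5Q knock-in, with an expanded glutamine-coding CAG repeat in 1 copy of Atxn7. The vector was AAV PhP.eB, which carried eGFP under the CMV promoter and an shRNA under the H1 promoter, neither of them specific to a cell type; shA4 was designed against the CAG repeat, shSCR was scrambled, and untreated mice received saline according to the methods. The day from which the weeks count is not in the labels. The paper counts the weeks of both sets from the injection, and its number for the late set differs from the label. Total counts ran from 31465586 to 54570503 per library.

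Normalised read counts are given as CPM (counts scaled to library size with TMM), with SD over mice. Comparisons were tested by edgeR's quasi-likelihood method, with p-values adjusted after Benjamini and Hochberg over all protein-coding genes tested; called means an adjusted p under 0.05. The standard error (SE) of a log2 fold change was taken as its size divided by the square root of the test's F value.

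Per kilobase of median transcript length, the cerebellins of granule cells were by far the most abundant of the 8 genes. The mean level over the 20 libraries was 509 CPM per kb for Cbln1 and 493 for Cbln3. Cbln1 was the higher of this pair in 6 of the 20 libraries, the 6 of the early set, so their order was not fixed. Their order also rests on the lengths used, since Cbln3 has 2 transcripts, with a median of 3152 bases and a longest of 4866. Grid1 followed at 40.9 CPM per kb, Adgrb3 at 29.1 and Grid2ip at 22.3, and Adgrb3 was above Grid2ip in 16 of 20 libraries. The climbing fibre ligand C1ql1 stood at 3.43 CPM per kb. Cbln2 averaged 0.836 CPM per kb and Cbln4 0.493, and Cbln2 was the higher in only 7 of 20 libraries. The place of Grid1 rested on the length used, because its median transcript has 825 bases and its longest 5720. With the longest transcript its level was 5.89 CPM per kb, below the 20 of Grid2ip.

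**Figure D1:**
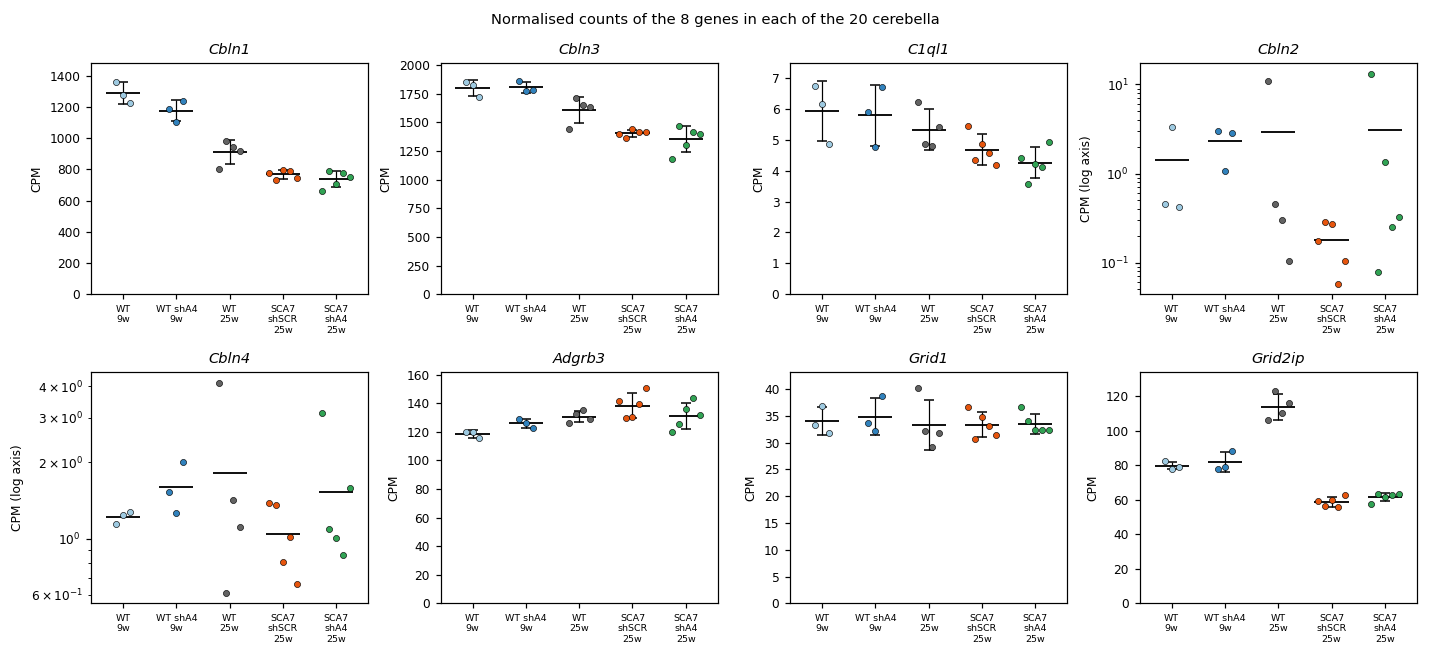
Normalised counts (CPM) of the 8 genes in each of the 20 cerebella, by group. Points are mice, horizontal lines are means, and vertical bars are SD where the axis is linear; Cbln2 and Cbln4 are on log axes without bars. The 4 untreated WT mice at 25w lie between 106 and 123 CPM for Grid2ip, above the 10 SCA7 mice.

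Of the late set, 2 libraries stood apart, AAV-shA4-treated SCA7 replicate 1 and untreated WT replicate 1. Cbln2 reached 13.3 CPM in the first and 10.9 CPM in the second, against 1.36 CPM or less in the other 12 late libraries. Slc17a6, the vesicular glutamate transporter of cerebellar nucleus and brainstem neurons, was 74.5 CPM in the SCA7 library and 21 to 31.1 in the other 4 of its group. In the WT library Slc17a6 was 80.2 CPM, against 17.3 to 22.6 in the other 3. Both libraries were thus high in Slc17a6, and both were low in the summed level of 10 granule cell markers. That sum, whose most abundant gene was Zic1, was 5046 CPM in the SCA7 library against 5486 to 5592 in the other 4, and 5200 CPM in the WT library against 5968 to 6118 in the other 3. Among the nucleus and brainstem markers, Hoxa3, Hoxa4, Hoxb3, Hoxb4 and Chat each had a count of 0 in at least 1 of the 20 libraries, and Nefm was the most abundant. Slc17a6 was picked from that list after its values were seen, and the other abundant genes of the list did not all follow it. In the SCA7 library Nefm was 151 CPM, Nefh 118 and Spp1 32.4, within the 147.2 to 181.5, 118 to 136 and 31.8 to 39.4 of the other 4 of its group. In the WT library they were 186, 148 and 42.7 CPM, each the highest of its group, where the other 3 had 133.1 to 163.2, 117 to 147 and 32.2 to 36.2. Values without these 2 libraries are given beside the results that they touch most.

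The targeted gene is given first, as a summed count of both Atxn7 alleles, which the table does not separate. Atxn7 was 44.4, 47.5, 49.6, 47.5 and 51.7 CPM in the AAV-shA4-treated SCA7 mice and 45.6, 53.4, 48.1, 50.5 and 50 CPM in the AAV-shSCR-treated SCA7 mice. The untreated WT mice at 25w had 45.7, 50.2, 49.3 and 48.8 CPM. These 3 groups overlapped. At 9w Atxn7 was 38.2, 41.3 and 41.0 CPM in the AAV-shA4-treated WT mice and 38.7, 43.1 and 37.6 CPM in the untreated WT mice, again with overlap. Atxn7 was not called for AAV-shA4 against AAV-shSCR, with a log2 fold change of −0.04 (95% interval −0.14 to 0.06) that ran from −0.07 to −0.01 with 1 mouse left out, nor for AAV-shA4 against untreated WT mice at 9w, with 0.01 (−0.13 to 0.15). Between the untreated WT groups, which did not overlap, it was called higher at 25w than at 9w, by 0.28 (SE 0.055, adjusted p 0.00596 in edgeR's quasi-likelihood test after Benjamini-Hochberg adjustment), a call that was lost when a fold change above 1.3 was also needed.

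SCA7 mice were compared with untreated WT mice at 25w to ask how the disease allele acts on the cerebellum under each shRNA. In both SCA7 groups the scaffold gene Grid2ip and the granule cell ligands Cbln1 and Cbln3 fell, and no member rose. With AAV-shSCR, 3 of 8 members were called, all lower, where 15.5% of the 14862 genes tested were called in either direction. With AAV-shA4, 3 of 8 were called, all lower, where 13.6% of genes were called. Over the 8 members the median log2 fold change was −0.22 under AAV-shSCR and −0.25 under AAV-shA4, and over all genes tested it was 0.0017 and 0.0061. Without the 2 libraries that stood apart the median over the members was smaller, −0.17 under AAV-shSCR and −0.12 under AAV-shA4. The 2 comparisons share the 4 WT libraries. The WT mice received no vector, so genotype and vector cannot be told apart.

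Among the ligands, Cbln1, on the minus strand at chr8:87468405-87472609 of GRCm38, is the cerebellin that ties parallel fibre terminals to PC spines. It was 801, 979, 946 and 920 CPM in the WT mice, 776, 734, 796, 789 and 742 CPM in the AAV-shSCR-treated SCA7 mice, and 660, 788, 708, 778 and 751 CPM in the AAV-shA4-treated SCA7 mice. All 10 SCA7 mice were below all 4 WT mice, although WT replicate 1 came within a few CPM of the highest SCA7 mouse. Cbln1 fell by a log2 fold change of −0.25 (SE 0.058) with AAV-shSCR, with an adjusted p of 0.00729 in edgeR's quasi-likelihood test after Benjamini-Hochberg adjustment. With AAV-shA4 it fell by −0.31 (SE 0.058), with an adjusted p of 0.00161 in the same edgeR test after Benjamini-Hochberg adjustment. When a call also needed an estimated fold change above 1.3, the limit used in the study, neither was kept.

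Cbln3, on the minus strand at chr14:55878913-55884392, is the granule cell partner that depends on Cbln1 for secretion. It was 1443, 1712, 1649 and 1632 CPM in the WT mice, 1398, 1363, 1439, 1415 and 1415 CPM with AAV-shSCR, and 1183, 1466, 1306, 1417 and 1397 CPM with AAV-shA4. WT replicate 1 was the lowest of its group and sat just above the highest AAV-shSCR mouse and below AAV-shA4 replicate 2, while the other 3 WT mice were clear of every SCA7 mouse. Cbln3 fell by −0.19 (SE 0.056, adjusted p 0.0264) with AAV-shSCR in edgeR's quasi-likelihood test after Benjamini-Hochberg adjustment. The call was lost without AAV-shSCR replicate 2 (adjusted p 0.0573) and without WT replicate 2 (0.0912), 3 (0.0705) or 4 (0.0650), by edgeR's quasi-likelihood test after Benjamini-Hochberg adjustment. With AAV-shA4, Cbln3 fell by −0.25 (SE 0.056, adjusted p 0.00654) in edgeR's quasi-likelihood test after Benjamini-Hochberg adjustment. Neither call was kept with the 1.3-fold limit.

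The granule cell markers were given beside both ligands, since granule cells make them. Their sum was 5692 ± 68.8 CPM (SD, n = 5) with AAV-shSCR, 5444 ± 227 CPM (n = 5) with AAV-shA4 and 5847 ± 437 CPM (n = 4) in WT mice. With AAV-shSCR 1 of 10 granule cell markers was called higher and 2 lower, and with AAV-shA4 1 was called higher and 4 lower. Of all genes, 15.5% and 13.6% were called under AAV-shSCR and AAV-shA4. In the single libraries the sum was 5639, 5688, 5721, 5791 and 5619 CPM with AAV-shSCR, 5046, 5486, 5513, 5592 and 5583 CPM with AAV-shA4, and 5200, 6118, 6104 and 5968 CPM in WT mice, so that both SCA7 groups overlapped the WT group only through WT replicate 1. The part of the granule cell markers in the lower Cbln1 and Cbln3 was not tested. Without the 2 libraries that stood apart, Cbln1 was −0.30 and −0.33 and Cbln3 −0.24 and −0.25 for AAV-shSCR and AAV-shA4, and all 4 were called. In bulk tissue, fewer cells of a type and less RNA per cell cannot be told apart.

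The ratio of Cbln3 to Cbln1 counts within a library does not depend on how libraries are scaled. Its log2 value was 0.87 ± 0.037 (SD, n = 5) with AAV-shSCR, 0.88 ± 0.023 (n = 5) with AAV-shA4 and 0.82 ± 0.022 (n = 4) in WT mice. The groups overlapped. The difference from WT was 0.053 with AAV-shSCR (two-sided exact permutation p 0.0556, adjusted 0.0926 over 10 ratio tests) and 0.055 with AAV-shA4 (exact p 0.0238, adjusted 0.0571), and neither passed after adjustment.

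Cbln2 and Cbln4 are cerebellins better known from other brain regions, and both had low counts. Cbln2 was 10.9, 0.451, 0.302 and 0.103 CPM in WT mice, 0.177, 0.283, 0.270, 0.0580 and 0.106 CPM with AAV-shSCR, and 13.3, 0.0778, 1.36, 0.254 and 0.328 CPM with AAV-shA4, from 2 to 597 counts per library. Each of the WT and AAV-shA4 means was carried by replicate 1. The log2 fold change for AAV-shSCR against WT was −4.05 (SE 1.52) and was not called, with an adjusted p of 0.0851 in edgeR's quasi-likelihood test after Benjamini-Hochberg adjustment, and it was −0.65 without WT replicate 1. When only these 2 groups were fitted it was called, with an adjusted p of 0.0311 by edgeR's quasi-likelihood test after Benjamini-Hochberg adjustment. For AAV-shA4 against WT it was 0.045, with −2.58 without AAV-shA4 replicate 1 and 3.44 without WT replicate 1, and 0.82 without both. It was also negative without WT replicate 2 (−0.30), 3 (−0.32) or 4 (−0.34). These libraries were singled out by Cbln2, so its values without them describe the remaining mice only. Cbln4 was highest in the same libraries, 4.13 CPM in WT replicate 1 against 0.610 to 1.42 in the other WT mice and 3.13 CPM in AAV-shA4 replicate 1 against 0.857 to 1.59 in the others. It was 0.660 to 1.39 CPM with AAV-shSCR and was not called in any comparison. For AAV-shSCR against WT the log2 fold change of Cbln4 was −0.83, and −0.017 without both libraries that stood apart. The part of the nucleus and brainstem markers in these levels was not tested.

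**Figure D2:**
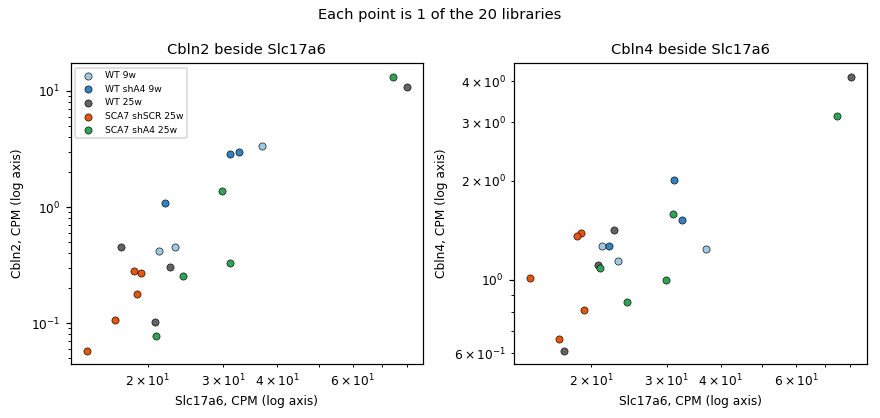
Cbln2 (left) and Cbln4 (right) against Slc17a6, all in CPM on log axes, with 1 point per library and colours for the 5 groups. The 2 points at the far right are AAV-shA4-treated SCA7 replicate 1 (Slc17a6 74.5 CPM, Cbln2 13.3 CPM) and untreated WT 25w replicate 1 (Slc17a6 80.2 CPM, Cbln2 10.9 CPM).

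C1ql1, on the minus strand at chr11:102939264-102946688, is the ligand of the climbing fibre, whose cell bodies in the inferior olive lie outside the cerebellum. Its counts here came from the cerebellum, and which cells gave them was not tested. C1ql1 was 6.23, 4.86, 4.80 and 5.42 CPM in WT mice, 5.46, 4.33, 4.86, 4.58 and 4.17 CPM with AAV-shSCR, and 4.42, 3.55, 4.20, 4.13 and 4.94 CPM with AAV-shA4. The groups overlapped, with 4 of 5 AAV-shA4 mice below every WT mouse. Against WT, the log2 fold change with AAV-shA4 was −0.33 (SE 0.11, 95% interval −0.56 to −0.095), and it was not called, with an adjusted p of 0.0596 in edgeR's quasi-likelihood test after Benjamini-Hochberg adjustment. It was called by DESeq2 (adjusted p 0.0464) and, in edgeR's quasi-likelihood test after Benjamini-Hochberg adjustment, without AAV-shA4 replicate 5 (0.0359). Without WT replicate 1 it was −0.24 (adjusted p 0.188), and without both libraries that stood apart −0.26 (0.202), in edgeR's quasi-likelihood test after Benjamini-Hochberg adjustment. With AAV-shSCR it was −0.19 (−0.42 to 0.044), or −0.10 without WT replicate 1, and was not called.

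The receptors gave no call in SCA7 mice. Adgrb3, the Bai3 receptor for C1ql1, was 131 ± 9.22 CPM (SD, n = 5) with AAV-shA4, 138 ± 8.81 CPM (n = 5) with AAV-shSCR and 131 ± 3.97 CPM (n = 4) in WT mice. Its log2 fold change against WT was 0.083 (95% interval −0.026 to 0.19) with AAV-shSCR and 0.0052 (−0.10 to 0.11) with AAV-shA4. Grid1, whose product GluD1 also binds cerebellins and is found in interneurons and glia of the cerebellum, was 33.6 ± 1.87, 33.4 ± 2.41 and 33.3 ± 4.73 CPM in the same 3 groups. Over all 20 libraries it stayed between 29.2 and 40.1 CPM, and its intervals against WT ran from −0.16 to 0.16 with AAV-shSCR and from −0.15 to 0.17 with AAV-shA4. Without WT replicate 1, the highest of the 20, the differences were 0.11 for AAV-shSCR and 0.12 for AAV-shA4, and neither was called. The sign of values this close to 0 turned in several alternatives, as did that of Adgrb3 with AAV-shA4.

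Some markers of interneurons and glia, the cells in which Grid1 is found, were called lower in SCA7 mice, and most were not called. Of 9 molecular layer interneuron and Golgi cell markers, with Gad1 the most abundant, 3 were called lower and none higher in each SCA7 group, beside the 15.5% and 13.6% of all genes called under AAV-shSCR and AAV-shA4. Their median log2 fold change was −0.079 and −0.097. Their sum was 1135 to 1215 CPM with AAV-shSCR, 1171 to 1264 CPM with AAV-shA4 and 1303 to 1399 CPM in WT mice. The SCA7 groups overlapped each other, and no SCA7 mouse reached the lowest WT mouse. Of 8 Bergmann glia and astrocyte markers, with Slc1a3 the most abundant, 3 were called lower under AAV-shSCR and 4 under AAV-shA4, where none was called higher. Their sum was 2981 to 3158 CPM with AAV-shSCR, 2918 to 3467 CPM with AAV-shA4 and 3310 to 3471 CPM in WT mice, and only AAV-shA4 replicate 2 reached the WT mice. No marker of either list had a count of 0, and their part in the level of Grid1 was not tested. Unipolar brush cell markers summed to 713 to 771 CPM with AAV-shSCR, 623 to 767 CPM with AAV-shA4 and 593 to 685 CPM in WT mice. Of these 5 markers 1 was called higher and 1 lower with AAV-shSCR, and 0 higher and 1 lower with AAV-shA4. Of 5 blood markers 1 was called higher with AAV-shSCR and 0 with AAV-shA4, with medians of 1.49 and 0.76, and none was called lower.

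Grid2ip, on the plus strand at chr5:143357338-143392152, encodes delphilin, which binds the tail of delta-type receptors at parallel fibre synapses of PCs. It was 106, 123, 110 and 116 CPM in the WT mice, 59.1, 56.2, 60.1, 55.6 and 62.8 CPM in the AAV-shSCR-treated SCA7 mice, and 57.5, 63.5, 61.5, 63.0 and 63.2 CPM in the AAV-shA4-treated SCA7 mice. The 10 SCA7 mice formed a narrow band far below the 4 WT mice, and the groups did not overlap. Grid2ip fell 1.94-fold with AAV-shSCR (log2 fold change −0.95, SE 0.046), with an adjusted p of 2.28e-09 in edgeR's quasi-likelihood test after Benjamini-Hochberg adjustment. It fell 1.84-fold with AAV-shA4 (−0.88, SE 0.046), with an adjusted p of 7.14e-09 in edgeR's quasi-likelihood test after Benjamini-Hochberg adjustment. It was the only member called also with the 1.3-fold limit, and without the 2 libraries that stood apart the fold changes were −0.99 and −0.89. An annotated antisense gene, Gm20635, covers 645 of its exon bases (9.52%). Gm20635 itself had 0.335 to 0.895 CPM, and whether reads of the opposite strand were counted for Grid2ip is not stated.

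PC markers moved with Grid2ip. All 9 of 9 fell in both SCA7 groups, where 15.5% and 13.6% of all genes were called under AAV-shSCR and AAV-shA4. The median log2 fold change of these markers was −0.46 in each, and none had a count of 0. Their sum, in which Itpr1 was the most abundant, was 9827, 11107, 10351 and 10292 CPM in WT mice, 7573, 7264, 7512, 6830 and 7648 CPM with AAV-shSCR, and 6904, 7525, 8067, 7789 and 7433 CPM with AAV-shA4. No SCA7 mouse reached the lowest WT mouse. The largest falls among them with AAV-shSCR were those of Gng13 (−0.87) and Rgs8 (−0.78), which act in G protein signalling, against −0.95 for Grid2ip. Oligodendrocyte markers, with Mbp the most abundant, were also lower, with 5 of 8 called lower and a sum of 4733 ± 333 CPM (SD, n = 5) with AAV-shSCR, 4998 ± 233 CPM (n = 5) with AAV-shA4 and 6234 ± 529 CPM (n = 4) in WT mice. The part of the oligodendrocyte markers was not tested.

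Set against the PC markers within each library, Grid2ip was still lower in SCA7 mice. The log2 ratio of Grid2ip counts to the summed PC marker counts was −6.53, −6.50, −6.55 and −6.47 in WT mice, −7.00, −7.01, −6.97, −6.94 and −6.93 with AAV-shSCR, and −6.91, −6.89, −7.04, −6.95 and −6.88 with AAV-shA4. All 10 SCA7 mice were below all 4 WT mice. The difference from WT was −0.46 for AAV-shSCR and −0.42 for AAV-shA4, each with a two-sided exact permutation p of 0.00794, the smallest this design allows, and an adjusted p of 0.0397 over 10 ratio tests. Leaving out any 1 mouse took the adjusted p above 0.05, since fewer mice allow fewer relabellings, while the differences ran only from −0.47 to −0.44 and from −0.43 to −0.39. With the median over the PC markers in place of their sum, the differences were −0.50 and −0.42.

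**Figure D3:**
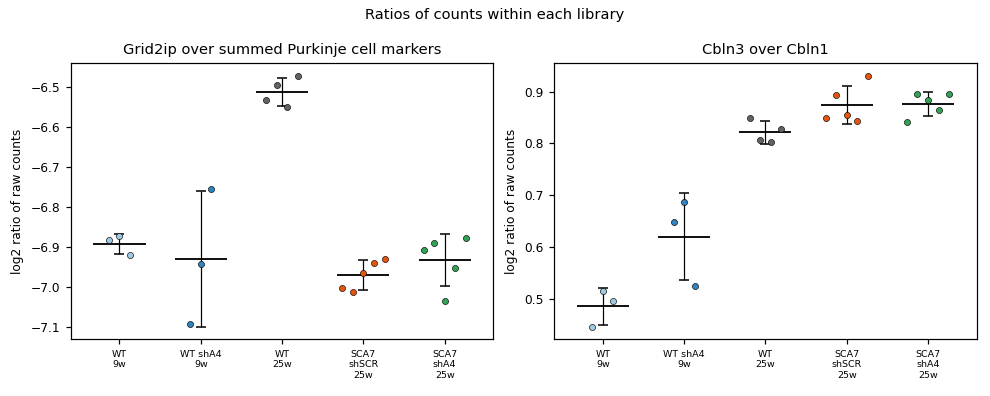
Log2 ratios of raw counts within each library, by group: Grid2ip over the summed PC markers (left) and Cbln3 over Cbln1 (right). Points are mice, horizontal lines are means and vertical bars are SD; for Grid2ip the 4 WT mice at 25w lie between −6.55 and −6.47 and the 10 SCA7 mice at −6.88 or lower.

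The partners of these proteins were followed as 5 lists of genes. Of the 6 genes for neurexins and for the splicing factors of segment SS4, none was called by edgeR or DESeq2 in either SCA7 group, with 0 genes at an unadjusted p under 0.05 with AAV-shSCR and 2 with AAV-shA4. Khdrbs2, the splicing factor with the largest change in that list, was 7.13 ± 0.475 CPM (SD, n = 5) under AAV-shSCR and 7.89 ± 0.354 CPM (n = 4) in WT mice (log2 fold change −0.14, SE 0.080). Of 11 other neurexin ligands, 2 rose and 3 fell in each SCA7 group, beside the 15.5% and 13.6% of all genes called under AAV-shSCR and AAV-shA4. Their median was −0.055 for AAV-shSCR and −0.0003 for AAV-shA4. The calsyntenins Clstn2 (−0.74, SE 0.083) and Clstn3 (−0.20, SE 0.031) and the inhibitory synapse neuroligin Nlgn2 (−0.21, SE 0.032) fell with AAV-shSCR, and the postsynaptic adhesion gene Lrrtm2 rose (0.27, SE 0.050). With the 1.3-fold limit the calls of Clstn3, Nlgn2 and Lrrtm2 were lost.

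Relatives of the C1ql1 and Bai3 complex gave no call in SCA7 mice in the main edgeR fit. The list has 8 genes, of which C1ql4 was not tested for its low counts, and 2 of the 7 tested had an unadjusted p under 0.05 in each SCA7 group, while DESeq2 called 0 with AAV-shSCR and 1 with AAV-shA4. C1ql3, a presynaptic C1q-like ligand, was 9.54 ± 1.37 CPM (SD, n = 5) with AAV-shSCR, 14 ± 1.92 CPM (n = 5) with AAV-shA4 and 11.7 ± 0.721 CPM (n = 4) in WT mice. The log2 difference between the 2 SCA7 groups was 0.55 (SE 0.11) and was not called, with an adjusted p of 0.301 in edgeR's quasi-likelihood test after Benjamini-Hochberg adjustment, while DESeq2 called 1 gene of the list in that comparison. Against WT, C1ql3 was not called with AAV-shA4 (0.26) or with AAV-shSCR (−0.29). With AAV-shA4 it was called higher without AAV-shA4 replicate 1 (0.34, adjusted p 0.0261) and without both libraries that stood apart (0.35, 0.0418), in edgeR's quasi-likelihood test after Benjamini-Hochberg adjustment. With AAV-shSCR it was called lower without AAV-shSCR replicate 3 (−0.35, adjusted p 0.0473 in edgeR's quasi-likelihood test after Benjamini-Hochberg adjustment). Of 14 postsynaptic scaffold genes, 7 fell under AAV-shSCR and 6 under AAV-shA4, and none rose, where 15.5% and 13.6% of all genes were called in either direction. Homer3, a PC scaffold tied to metabotropic glutamate receptors, fell by −0.59 (SE 0.051) with AAV-shSCR, and Shank2 by −0.51 (SE 0.040). Shank1 fell by −0.29 (SE 0.031), a call that the 1.3-fold limit did not keep. Of 14 genes of climbing fibre maturation, 2 rose and 6 fell in each SCA7 group, beside the same shares of all genes. Among those that fell with AAV-shSCR were the retrograde signal Sema7a (−0.56, SE 0.039), Sort1 (−0.20, SE 0.031) and the complement-related gene Susd4 (−0.19, SE 0.027), and the calls of Sort1 and Susd4 were lost with the 1.3-fold limit.

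For Grid2ip, Cbln1 and Cbln3, the members called in SCA7 mice, the genes whose levels followed them most closely were found over the 20 libraries among 15089 genes, by the root mean square difference of log2 CPM after each gene was centred on its own mean. Grid2ip was nearest to Gpr63 (0.119), Cntnap5b (0.125) and Clstn2 (0.145), against a spread of 0.36 for Grid2ip itself. Cbln1 was nearest to Ackr1 (0.0971), Tmem132a (0.101) and Nrep (0.104), against its own spread of 0.32. Cbln3 was nearest to Nptx1 (0.0476), Phyhip (0.0559) and Camkk2 (0.0592), against 0.19. All 20 libraries enter these values, so the time labels and the SCA7 genotype both shape them.

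AAV-shA4 was compared with AAV-shSCR in SCA7 mice to ask what the CAG-directed shRNA changes at 25w. No member was called, and no gene of the 14862 tested, so that percent called was 0. Without adjustment, 1222 genes had a p under 0.05, among them 1 member, Cbln2, and DESeq2 called 24 genes and 0 members. The median log2 fold change was −0.023 over the members and 0.0002 over all genes tested. Grid2ip was 61.7 ± 2.46 CPM in the AAV-shA4 group and 58.8 ± 2.93 CPM in the AAV-shSCR group (SD, n = 5 each), and the log2 difference was 0.069 with a 95% interval of −0.025 to 0.16. This interval does not reach the size of the fall against WT. Cbln1 differed by −0.059 (−0.17 to 0.056) and Cbln3 by −0.055 (−0.17 to 0.057), and the groups overlapped for both. Without both libraries that stood apart these were −0.021 and −0.0098. Granule cell markers summed to 5046 to 5592 CPM with AAV-shA4 and 5619 to 5791 CPM with AAV-shSCR, without overlap. Of these 10 markers none was called by edgeR or DESeq2, and 3 had an unadjusted p under 0.05. Their median log2 fold change was −0.063, and their part in the ligand levels was not tested. The ratio of Grid2ip to PC markers differed by 0.038 (two-sided exact permutation p 0.278), with 0.024 to 0.063 when 1 mouse was left out (lowest adjusted permutation p 0.0794) and 0.080 with the median over the markers, and that of Cbln3 to Cbln1 by 0.0023 (exact p 0.897). For Cbln2 the difference was 4.09 (SE 1.49), and 1.46 without AAV-shA4 replicate 1, and for Cbln4 it was 0.58, and 0.14 without both libraries that stood apart, and none was called. Cerebellar nucleus and brainstem markers summed to 320 to 389 CPM with AAV-shA4 and 271 to 318 CPM with AAV-shSCR, without overlap. Slc17a6 was 21 to 74.5 and 14.4 to 19.3 CPM in these groups. Of the 5 markers tested none was called by edgeR or DESeq2, and 3 had an unadjusted p under 0.05. Their part in Cbln2 and Cbln4 was not tested.

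Since shA4 is directed at CAG repeats, the CAG runs of the members themselves are shown. The longest run in any member transcript was 3 CAG units, found in Grid2ip and Cbln1, and 14.9% of protein-coding genes have a run of at least 3. The runs of Grid2ip are in its coding sequence, on the plus strand within chr5:143381704-143381730 and chr5:143382570-143382596 of GRCm38. That of Cbln1 is in its 5′ UTR, on the minus strand within chr8:87472521-87472547. These are windows of 27 bases with the run in the middle, and those of Grid2ip are named below by their first base. Each sequence is the transcript strand 5′ to 3′ in GENCODE, with the CAG run in capitals.
Grid2ip coding run at 143381704: cagcttggaCAGCAGCAGggcgccctc
Grid2ip coding run at 143382570: cgagtgtgtCAGCAGCAGcgaggaggg
Cbln1 untranslated run: cggcggcggCAGCAGCAGcggcgagtg

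At 9w, AAV-shA4-treated and untreated WT mice were compared to ask what AAV-shA4 does in mice without the disease allele. No WT mouse received AAV-shSCR, so vector and shRNA cannot be told apart here. None of the 8 members was called by edgeR or DESeq2, and 1, Cbln1, had an unadjusted p under 0.05. In this comparison 0.0679% of the 14733 genes tested were called, 10 in all, and DESeq2 called 130. This share is unsteady, since leaving out 1 mouse gave from 1 to 73 genes, and without treated replicate 3 it was 22 higher and 51 lower in place of 8 higher and 2 lower. The median log2 fold change was 0.033 over the members and −0.0001 over all genes, and over the members it was −0.0097 without treated replicate 3. Cbln1 was 1186, 1105 and 1239 CPM with AAV-shA4 and 1362, 1278 and 1223 CPM without. Treated replicate 3 was above untreated replicate 3, so the groups overlapped, and the log2 fold change was −0.13 (95% interval −0.26 to −0.0028), with an adjusted p of 0.436 in edgeR's quasi-likelihood test after Benjamini-Hochberg adjustment. Cbln3 was 1858, 1778 and 1783 CPM with AAV-shA4 and 1855, 1826 and 1725 CPM without, with a log2 fold change of 0.0015 (−0.11 to 0.11). The log2 ratio of Cbln3 to Cbln1 was therefore higher in all 3 treated mice (0.65, 0.69 and 0.53) than in the 3 untreated mice (0.45, 0.51 and 0.50), a difference of 0.13. Its two-sided exact permutation p of 0.1 is the smallest that 3 against 3 mice allow.

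Grid2ip was 77.7, 79.2 and 88.6 CPM in the AAV-shA4-treated WT mice and 82.3, 78.2 and 79.1 CPM in the untreated WT mice at 9w. The groups overlapped, and the log2 fold change was 0.033 (95% interval −0.096 to 0.16). Adgrb3 was 129, 126 and 123 CPM with AAV-shA4 and 120, 120 and 115 CPM without, higher in every treated mouse, with a log2 fold change of 0.088 (−0.014 to 0.19) that was not called. Of the marker lists, no gene was called by edgeR at 9w. DESeq2 called 1 unipolar brush cell, 1 Bergmann glia and astrocyte and 1 oligodendrocyte precursor marker. Some sums did not overlap, while those of the other lists did. With 3 against 3 mice, 0.1 of all relabellings separate the groups completely for any gene or sum. The separation of these sums and of Adgrb3 is therefore a description only, and the share over all genes is not given here. Bergmann glia and astrocyte markers summed to 3718 to 3820 CPM with AAV-shA4 and 3414 to 3529 CPM without, oligodendrocyte markers to 7335 to 7680 and 7992 to 8299 CPM, and unipolar brush cell markers to 633 to 676 and 685 to 760 CPM. Their part in the levels of the members was not tested. C1ql1 was 5.79 ± 0.981 and 5.93 ± 0.962 CPM (SD, n = 3 each), and Grid1 34.8 ± 3.42 and 34.0 ± 2.61 CPM. Cbln2 was 2.99, 1.08 and 2.86 CPM with AAV-shA4 and 0.452, 3.35 and 0.416 CPM without, and Slc17a6 was again highest, at 36.9 CPM, in the untreated mouse with the most Cbln2. The treated libraries were shallower, at 36245752 to 39208298 counts against 47455917 to 49212593, so depth and treatment cannot be told apart.

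Untreated WT mice at 25w and 9w were compared to ask how the members stand in older and younger cerebella. Grid2ip and Adgrb3 rose and Cbln1 fell. Of 8 members 3 were called, where 23.0% of the 14875 genes tested were called, and DESeq2 called 4. This share is unsteady, with 2272 of 14808 genes called without WT 25w replicate 3 and 1502 of 14875 with the replicate block. The median log2 fold change was 0.060 over the members and 0.0059 over all genes, but over the members it was −0.17 without WT 25w replicate 1, so its sign rested on that library. The 2 sets are also different cohorts, so age and cohort cannot be told apart.

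Grid2ip was 114 ± 7.32 CPM (SD, n = 4) at 25w and 79.9 ± 2.19 CPM (n = 3) at 9w, with every older mouse above every younger mouse. It rose by a log2 fold change of 0.51 (SE 0.049), with an adjusted p of 0.000213 in edgeR's quasi-likelihood test after Benjamini-Hochberg adjustment. The PC marker sum was 10394 ± 530 CPM (n = 4) and 9484 ± 295 CPM (n = 3), with 1 of 9 markers, Itpr1, called higher (0.29, SE 0.046). The log2 ratio of Grid2ip to the PC markers was −6.51 ± 0.035 (n = 4) at 25w and −6.89 ± 0.025 (n = 3) at 9w. The groups did not overlap, and the difference of 0.38 had a two-sided exact permutation p of 0.0286, the smallest this design allows, and an adjusted p of 0.0571. With the median over the PC markers in place of their sum, which Itpr1 leads, the difference was 0.64. In CPM, both SCA7 groups, at 61.7 and 58.8, were also below the 6 WT mice of the early set, of which the lowest had 77.7. In the log2 ratio to the PC markers they overlapped that set. The SCA7 mice had −7.04 to −6.88 and the 6 early WT mice −7.09 to −6.75.

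Cbln1 was 911 ± 77.6 CPM (SD, n = 4) at 25w and 1288 ± 69.9 CPM (n = 3) at 9w, without overlap. It fell by −0.50 (SE 0.066), with an adjusted p of 0.00104 in edgeR's quasi-likelihood test after Benjamini-Hochberg adjustment. Cbln3 was 1609 ± 116 CPM (n = 4) and 1802 ± 68.4 CPM (n = 3), a smaller difference of −0.16 (SE 0.057) that was not called (adjusted p 0.0672 in edgeR's quasi-likelihood test after Benjamini-Hochberg adjustment), although the groups did not overlap. It was called by DESeq2 (adjusted p 0.0204) and when all 20 libraries were in 1 fit (adjusted p 0.0486 in edgeR's quasi-likelihood test after Benjamini-Hochberg adjustment). The log2 ratio of Cbln3 to Cbln1 was 0.82 ± 0.022 (n = 4) at 25w and 0.49 ± 0.035 (n = 3) at 9w. No mouse overlapped, and the difference of 0.34 had a two-sided exact permutation p of 0.0286, the smallest this design allows, and an adjusted p of 0.0571. Per kilobase of median transcript length, Cbln1 was at 707 and Cbln3 at 572 CPM per kb in the untreated mice at 9w, and at 500 and 511 CPM per kb at 25w. With these lengths the pair stood at like levels in the older mice, and this rests on the lengths used. In counts, Cbln3 was 1.74 to 1.80 times Cbln1 in the untreated WT mice at 25w and 1.36 to 1.43 times at 9w.

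Cell markers were also compared between the untreated WT groups at 25w and 9w, where 23.0% of all genes were called. Of 10 granule cell markers 2 were called lower at 25w and none higher, and their sum, led by Zic1, was 6763, 6639 and 5926 CPM at 9w against the 5200 to 6118 CPM given above, with overlap, a count near that share. Of 8 oligodendrocyte markers, led by Mbp, 7 were called lower, with a sum of 5710 to 6757 CPM at 25w and 7992 to 8299 CPM at 9w. Of 9 molecular layer interneuron and Golgi cell markers, led by Gad1, 2 were called higher at 25w and none lower, again near that share, with a sum of 1303 to 1399 CPM at 25w and 1213 to 1299 CPM at 9w, without overlap. No marker of these 3 lists had a count of 0. Of 5 blood markers 3 were called lower at 25w, as were 2 of 5 meningeal fibroblast and 2 of 8 oligodendrocyte precursor markers. None of these was called higher. Of 7 microglia markers 4 were called higher and 0 lower. In the lists of 8 Bergmann glia and astrocyte markers and 5 unipolar brush cell markers, 1 was called higher and 1 lower in each. The part of all these markers in the differences of Grid2ip, Adgrb3, Cbln1 and Cbln3 was not tested.

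Adgrb3 was 126, 133, 135 and 129 CPM at 25w and 120, 120 and 115 CPM at 9w, and no older mouse was as low as a younger mouse. It rose by 0.14 (SE 0.035), with an adjusted p of 0.0165 in edgeR's quasi-likelihood test after Benjamini-Hochberg adjustment. The call was lost without untreated 9w replicate 3 (adjusted p 0.0543), with all 20 libraries in 1 fit (0.0586) and with a replicate block (0.0844), all by edgeR's quasi-likelihood test after Benjamini-Hochberg adjustment, and with the 1.3-fold limit. C1ql1 and Grid1 gave no call, with intervals of −0.45 to 0.15 and −0.25 to 0.20. Cbln2 and Cbln4 turned from 1.12 and 0.61 to −2.29 and −0.21 without WT 25w replicate 1, and neither was called.

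Promoters are shown for the 2 members that fell in SCA7 mice and had an entry in the RefSeq promoter table of GRCm38.p6, to let the start regions of the scaffold and of a ligand be compared. Grid2ip has an entry at chr5:143363663-143363962 on the plus strand (66.0% G and C) and another further downstream, and Cbln3 has an entry at chr14:55884207-55884506 on the minus strand (57.0%). Grid1, Cbln1 and C1ql1 had no entry, and the chromosome that holds Cbln2 was left out of this step. Each runs 5′ to 3′, with the first 50 transcribed bases in capitals. The letters AGGTCA (a nuclear receptor half-site, as bound by ROR factors), CAGCTG (an E-box) and TATAAA (a core promoter box) were searched on both strands and were in none of the printed windows, while 16.3%, 16.3% and 13.6% of 32817 promoters of the same length hold them.
Grid2ip promoter: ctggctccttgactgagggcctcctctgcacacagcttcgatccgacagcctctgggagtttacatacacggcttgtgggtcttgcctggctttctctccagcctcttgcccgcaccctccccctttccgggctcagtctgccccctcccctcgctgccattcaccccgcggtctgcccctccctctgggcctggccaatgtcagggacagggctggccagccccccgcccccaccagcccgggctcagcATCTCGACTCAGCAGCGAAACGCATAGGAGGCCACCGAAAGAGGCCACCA
Cbln3 promoter: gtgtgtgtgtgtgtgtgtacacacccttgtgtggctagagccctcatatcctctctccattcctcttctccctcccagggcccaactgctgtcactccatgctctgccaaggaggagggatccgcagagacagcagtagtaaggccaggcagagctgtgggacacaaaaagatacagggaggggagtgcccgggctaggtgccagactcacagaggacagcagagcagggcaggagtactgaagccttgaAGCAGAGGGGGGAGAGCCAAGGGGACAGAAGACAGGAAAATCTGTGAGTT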

How the data were processed

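The authors deposited raw counts per gene; they trimmed reads with cutadapt 1.10, removed ribosomal reads with Bowtie2 2.2.8, aligned with STAR 2.5.3a to mm10 and counted with HTSeq 0.6.1p1. The strand setting of counting is not stated. Gene types, lengths and coordinates came from GENCODE M21. Protein-coding genes passing filterByExpr were fitted with edgeR 4.0.16 (R 4.3.3), in separate fits of the 14 late, the 6 early and the 7 untreated WT libraries, by group only. DESeq2 1.42.0 served as an alternative. Members and gene lists were chosen with earlier results of these data known, so their counts are descriptions. Named genes are the members, Atxn7, the most abundant gene of a marker list, up to 4 called genes of each pathway list by adjusted p with AAV-shSCR against WT, some of them left out of the text (or the gene with the largest change where none was called), and the 3 genes nearest each member called in SCA7 mice. Slc17a6, Gng13 and Rgs8, and the 3 motifs, were chosen after values were seen.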

Additional observations from a re-analysis of the deposited data

Results flagged for a closer look

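In 72 groups of 4 or 5 mice examined for a mouse far from the rest of its group, chance alone picks out about 1 in 20 groups, and 8 values stood out. In AAV-shA4-treated SCA7 replicate 1, Cbln2 was 13.2542 CPM and Slc17a6 74.5079 CPM, both far above the other 4 mice, and the granule cell marker sum was 5045.75 CPM, far below them. In untreated WT 25w replicate 1, Cbln2 was 10.8944 CPM and Slc17a6 80.2357 CPM, far above the other 3 mice, and the granule cell marker sum was 5199.94 CPM, far below them. The microglia marker sum was 249.896 CPM in AAV-shA4-treated SCA7 replicate 2 and 249.882 CPM in AAV-shSCR-treated SCA7 replicate 1, each far above its group.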

How the results depend on the processing

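Of 1551 values under alternatives for 141 results, 1417 kept their direction and side of the threshold; of the others 55 changed sign, 47 lost and 8 gained a call, and 24 counts or levels moved. Grid2ip was called in both SCA7 comparisons in every alternative run. The fits without both Cbln2-rich libraries and with all 20 libraries in 1 fit were chosen after seeing the data. Nothing in the labels says that a replicate number pairs mice, so the replicate block is only an alternative. Deviations from the group means correlated by −0.26 to 0.56 between mice of the same number. The highest value was between the 2 libraries that stood apart. Cbln2 was filtered out, so had no value, when only the AAV-shA4 and AAV-shSCR groups were fitted. With the 1.3-fold limit, 597 genes and 1 member were called for AAV-shSCR against WT, 513 genes and 1 member for AAV-shA4 against WT, and 764 genes for 25w against 9w. With the replicate block, 1502 genes were called for 25w against 9w and 75 for AAV-shA4 at 9w, and Adgrb3 for AAV-shA4 against WT was −0.0132. Genes called for AAV-shA4 at 9w were 45 with all 20 libraries in 1 fit, 21 with all gene types, 130 by DESeq2 and 37 with no filter. Genes called for AAV-shA4 against AAV-shSCR were 24 by DESeq2, 2 with only both groups fitted and 3 without both Cbln2-rich libraries. Grid1 for AAV-shSCR against WT was −1.91e-05 with RLE scaling, −0.00295 with no filter, −0.00358 with all gene types, −0.000373 with only both groups fitted and −0.000289 with all 20 libraries in 1 fit. Without both Cbln2-rich libraries, Cbln4 for AAV-shA4 against WT was 0.118, Grid1 for AAV-shA4 against AAV-shSCR −0.0247, and Cbln2 and Cbln4 for 25w against 9w −2.29 and −0.207. The difference in the log2 ratio of Grid2ip to PC markers at 9w was −0.038 with the sum of the markers and 0.166 with their median. With the longest transcript, levels per kb were 331 for Cbln1, 319 for Cbln3, 23.5 for Adgrb3 and 5.89 for Grid1, since the length itself changes.

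Leaving out 1 mouse at a time gave these ranges. For AAV-shSCR against WT, Grid1 ran from −0.058 to 0.106. For AAV-shA4 against WT, Grid1 ran from −0.049 to 0.115, Cbln2 from −2.58 to 3.44, Cbln4 from −0.70 to 0.56, Adgrb3 from −0.029 to 0.037 and Atxn7 from −0.037 to 0.019. For AAV-shA4 against AAV-shSCR, Grid1 ran from −0.025 to 0.045 and the ratio of Cbln3 to Cbln1 from −0.0055 to 0.016. At 9w, genes called ran from 1 to 73, Grid2ip from −0.029 to 0.068, Grid1 from −0.049 to 0.099, Cbln3 from −0.028 to 0.022, C1ql1 from −0.16 to 0.093, Atxn7 from −0.028 to 0.074 and the ratio of Grid2ip to PC markers from −0.125 to 0.044. For 25w against 9w, genes called ran from 2272 to 3344, Grid1 from −0.13 to 0.040, Cbln2 from −2.29 to 2.80 and Cbln4 from −0.21 to 0.89. The ratio of Grid2ip to PC markers ran from −0.470 to −0.444 for AAV-shSCR and from −0.433 to −0.394 for AAV-shA4 and lost its call each time, since fewer mice allow fewer relabellings. Elsewhere the cause was not tested. Counts of 2 to 597 per late library limit what can be seen for Cbln2.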
